A study of Mus musculus with 6 samples.

Results

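The genes described here act on MAP kinase and RAS signalling, most of them as brakes. They are 8 dual-specificity phosphatases (Dusp1, Dusp2, Dusp3, Dusp5, Dusp6, Dusp7, Dusp10 and Dusp22), the Sprouty gene Spry2 and the Sprouty-related gene Spred1. They were picked by symbol from the deposited table of normalized counts, and all 10 were found among its 15443 gene symbols. The choice was made with the midkine against control contrast of these libraries known, so their differences between the groups are given as a description, without a test. Wild-type C57BL/6J mice, an inbred laboratory strain, gave the bone marrow cells, which were cultured for 3 days with FLT3LG at 50 ng/ml, the cytokine that drives dendritic cell growth from marrow progenitors. In the midkine group (replicates 3, 4 and 5) recombinant human midkine at 10 ng/ml was added during those days. The control group (replicates 1, 2 and 4) had FLT3LG alone. Neither the number of mice nor whether replicates were separate cultures is given in the labels, so the spread between libraries may be technical.

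MAP kinases are activated by phosphorylation on a threonine and a tyrosine, and dual-specificity phosphatases remove both phosphates. Several of these phosphatase genes are themselves switched on by the kinases, so that their transcripts rise after a growth factor or stress signal and then limit it. Sprouty and Spred proteins act higher in the chain, between growth factor receptors and the kinases. In myeloid cells such signals follow ligands of receptor tyrosine kinases and of Toll-like receptors. In bulk RNA a lower share of cells of a type and less RNA per cell cannot be told apart.

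Recovered reads per library ranged from 6042165 to 7233960 in the midkine group and from 5985684 to 6415043 in the control group. On the first principal component midkine 5 lay far from the rest, with a score of 86.0, while midkine 3 and 4 had −10.6 and 1.94 and the controls −28.2 to −22.7. Mitochondrial ribosomal RNA took 0.377% of its reads, 4.12 and 4.69% of those of midkine 3 and 4, and 4.91 to 6.16% of those of controls. Values are therefore given with and without midkine 5. The 10 genes together took 0.0636 to 0.0744% of reads in midkine libraries and 0.0456 to 0.0515% in control libraries.

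The promoters of Dusp1, Dusp2 and Dusp5 are shown because they were the ones among the 10 that held a match to any motif searched. Each stretch is the 250 bases before the start of the transcript given for the gene in a RefSeq promoter table (GRCm38.p6), written 5′ to 3′ on the strand of the gene. Capitals mark matches on either strand to a cyclic AMP response element (CRE, TGACGTCA), a CRE half-site (TGACG), a CArG box, which is the site of serum response factor, or an E-box (CACGTG). The Dusp1 stretch is chr17:26508473-26508722 on the minus strand, that of Dusp2 is chr2:127335909-127336158 on the plus strand and that of Dusp5 is chr19:53528895-53529144 on the plus strand.
Dusp1: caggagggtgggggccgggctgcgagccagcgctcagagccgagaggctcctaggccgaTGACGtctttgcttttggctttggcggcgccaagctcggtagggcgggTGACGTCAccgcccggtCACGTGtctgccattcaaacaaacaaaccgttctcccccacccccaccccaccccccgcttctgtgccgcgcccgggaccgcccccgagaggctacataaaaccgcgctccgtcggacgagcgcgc
Dusp2: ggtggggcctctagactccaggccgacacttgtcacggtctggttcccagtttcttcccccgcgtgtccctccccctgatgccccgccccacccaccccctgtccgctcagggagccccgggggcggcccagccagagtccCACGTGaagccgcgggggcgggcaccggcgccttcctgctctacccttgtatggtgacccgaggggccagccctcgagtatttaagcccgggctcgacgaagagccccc
Dusp5: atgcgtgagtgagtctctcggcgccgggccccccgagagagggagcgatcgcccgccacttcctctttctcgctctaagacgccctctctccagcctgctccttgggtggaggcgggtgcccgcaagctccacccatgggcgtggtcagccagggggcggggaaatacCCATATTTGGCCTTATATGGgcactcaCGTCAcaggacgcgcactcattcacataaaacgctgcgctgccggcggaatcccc

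The Dusp1 stretch held 1 full CRE, beginning 143 bp before the start and made of overlapping half-sites on both strands, and a separate half-site at 191 bp. A full CRE was present in 1.55% and a half-site in 17.8% of 32807 mouse promoter stretches of the same length. Dusp5 had CArG boxes that adjoin each other at 82 and 72 bp, and a half-site at 55 bp. A CArG box was found in 1.47% of all stretches, and 6 stretches held at least 2. The E-boxes lay at 126 bp in Dusp1 and 109 bp in Dusp2, and 6.02% of all stretches had one. No match to the AP-1 site (TGANTCA, in 6.75% of all stretches) or to the ETS core (CCGGAA, in 12%) was found in any of the 10 stretches. For Dusp3 the transcript in the table starts inside the RefSeq gene model, so its stretch lies within the gene. For Dusp7 the stretch runs past the start of the model. By the GENCODE M21 spans given below, the starts used for Dusp1, Dusp5, Dusp10 and Dusp22 lie inside the gene too. Other starts of all these genes were not searched. GC content was 56.4 to 77.6% in the 10, against a median of 52.4% over all. A match says only that these letters occur in the window.

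**Figure D1:**
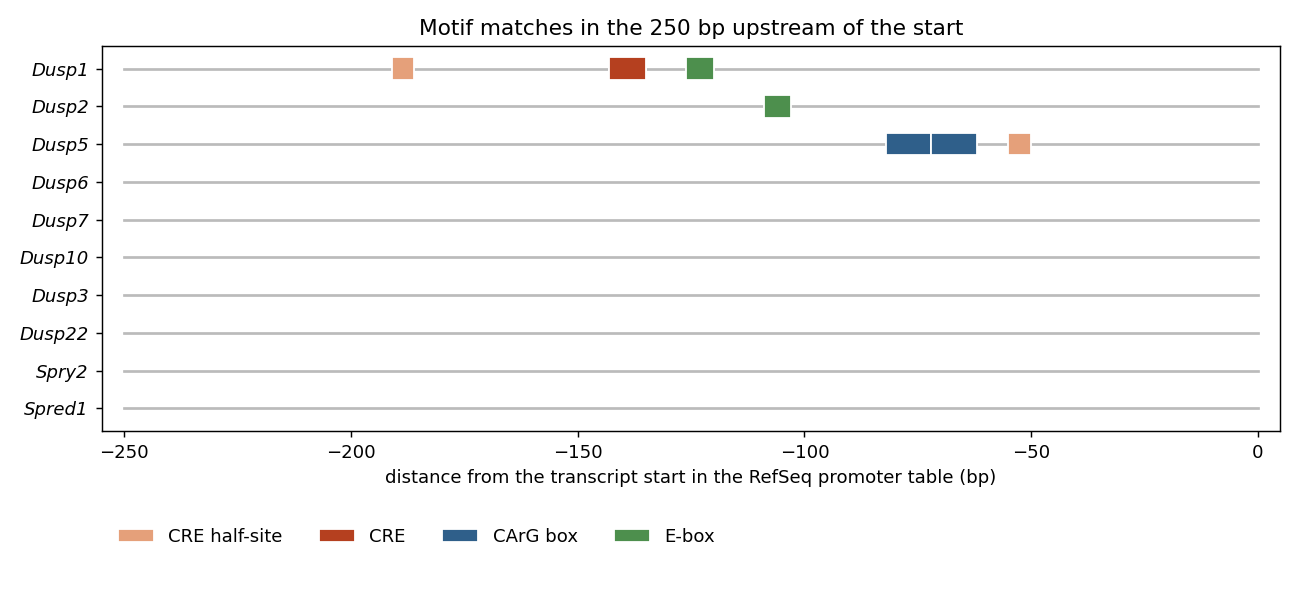
Positions of motif matches in the 250 bp before the transcript start given for each of the 10 genes in the RefSeq promoter table. For Dusp3 and Dusp7 this is not the first start of the RefSeq gene model. For Dusp1, Dusp5, Dusp10 and Dusp22 it lies inside the GENCODE M21 span. The x axis is the distance from the start in bp, and coloured boxes are matches on either strand. Dusp1 holds a CRE at 143 bp, Dusp5 adjoining CArG boxes at 82 and 72 bp, and Dusp6, Dusp7, Dusp10, Dusp3, Dusp22, Spry2 and Spred1 hold none of the motifs searched.

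The nuclear phosphatases whose genes respond first to a stimulus, Dusp1 and Dusp2, were the members with the highest differences. Dusp1 acts on p38, JNK and ERK and limits cytokine production by macrophages. It had 404, 657 and 575 normalized counts in midkine 3, 4 and 5, against 121, 152 and 103 in control 1, 2 and 4. The lowest midkine library thus lay far above the highest control. The means were 545 ± 129 and 125 ± 25.2 (SD, n = 3 each), and the log2 fold change, midkine minus control on the log2(value + 1) scale, was 2.10 ± 0.231 (SE, limma), or 2.05 ± 0.184 without midkine 5. In the GENCODE M21 annotation of GRCm38 the gene spans chr17:26505590-26562128 on the minus strand and shares exon sequence with Ergic1 on the other strand, while the RefSeq model ends at 26508472. Ergic1 had 632 ± 131 normalized counts in midkine and 480 ± 27.1 in control libraries (SD, n = 3 each), a log2 fold change of 0.38 ± 0.177 (SE). Whether its reads were split from those of Dusp1 by strand is not given in the sources used here.

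Dusp2, a phosphatase of activated blood cells (chr2:127336159-127338376, plus strand), had 275, 320 and 750 normalized counts in midkine 3, 4 and 5, against 175, 167 and 115 in control 1, 2 and 4. All midkine libraries lay above the controls, but midkine 5 was far above midkine 3 and 4. The log2 fold change was 1.42 ± 0.367 (SE) with all libraries and 0.98 ± 0.164 without midkine 5. The linear ratio of the means, midkine over control, was 2.94 and 1.95 in the same order.

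The phosphatases that prefer ERK differed in direction. Dusp6, a cytoplasmic phosphatase that is a common readout of ERK activity (chr10:99263231-99267489, plus strand), had 890, 968 and 940 normalized counts in midkine 3, 4 and 5 and 557, 657 and 507 in control 1, 2 and 4. The groups did not overlap, and the midkine libraries varied little around their mean (933 ± 39.4, against 573 ± 76.2 in control; SD, n = 3 each). Its log2 fold change was 0.71 ± 0.151 (SE), and 0.70 ± 0.116 without midkine 5. Dusp5, the nuclear phosphatase for ERK (chr19:53529109-53542431, plus strand), had 773 and 751 in midkine 3 and 4 but 401 in midkine 5, against 448, 542 and 423 in control 1, 2 and 4. Midkine 5 lay below every control, so the groups overlapped. The log2 fold change of Dusp5 was 0.39 ± 0.262 (SE) with midkine 5 and 0.70 ± 0.117 without it. The linear ratio of Dusp5 was 1.36 and 1.62 in the same order.

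Dusp7, the cytoplasmic relative of Dusp6 (chr9:106368632-106375724, plus strand), was the only one of the 10 with every midkine library below every control. It had 365, 374 and 280 normalized counts in midkine 3, 4 and 5 and 417, 410 and 466 in control 1, 2 and 4. The log2 fold change was −0.35 ± 0.168 (SE), and −0.22 ± 0.112 without midkine 5, which was the lowest library.

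Dusp10, which acts on JNK and p38 (chr1:184013302-184075636, plus strand), was the least abundant member by tag count. It had 25.1, 26.4 and 21.8 normalized counts in midkine 3, 4 and 5 and 14.4, 22.5 and 18.7 in control 1, 2 and 4. The ranges touched at midkine 5 and control 2. These values rest on 24 to 26 reads in each midkine library and 14 to 22 in each control library. The exact Poisson 95% interval of midkine 3 (26 reads, 17.0 to 38.1) covers the read count of every other library except control 1 (14 reads, 7.65 to 23.5). The log2 fold change was 0.40 ± 0.275 (SE), and 0.48 ± 0.305 without midkine 5.

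The small atypical phosphatases lack the kinase-binding domain of the others. Dusp3, which can dephosphorylate ERK and JNK (chr11:101971143-101987013, minus strand), had 1016, 941 and 664 normalized counts in midkine 3, 4 and 5 and 599, 722 and 604 in control 1, 2 and 4. Midkine 3 and 4 lay above the controls and midkine 5 among them. Its log2 fold change was 0.43 ± 0.193 (SE) with midkine 5 and 0.61 without it. Dusp22, a regulator of JNK and of T cell receptor signalling (chr13:30659999-30711231, plus strand), had 229, 243 and 200 in midkine 3, 4 and 5 and 193, 196 and 232 in control 1, 2 and 4. The ranges overlapped with or without midkine 5, and the log2 fold change of 0.11 ± 0.164 (SE) was smaller than its error.

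Of the inhibitors that act nearer the receptor, neither separated the groups. Spry2 curbs RAS signalling below growth factor receptors (chr14:105891947-105896819, minus strand) and had 42.5, 59.1 and 31.8 normalized counts in midkine 3, 4 and 5. In control 1, 2 and 4 it had 33.8, 26.6 and 33.5. Midkine 5 lay within the control range and midkine 4 was highest. The log2 fold change was 0.46 ± 0.278 (SE), 0.67 ± 0.244 without midkine 5 and 0.23 without midkine 4. Its reads numbered 35 to 56 per midkine library and 26 to 34 per control library.

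Spred1 carries neurofibromin, a RAS inactivator, to the membrane (chr2:117121374-117182279, plus strand). It had 309, 410 and 310 normalized counts in midkine 3, 4 and 5 and 366, 329 and 386 in control 1, 2 and 4. Midkine 3 and 5 lay below the controls and midkine 4 above them, with a log2 fold change of −0.08 ± 0.170 (SE) and −0.01 ± 0.131 without midkine 5.

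**Figure D2:**
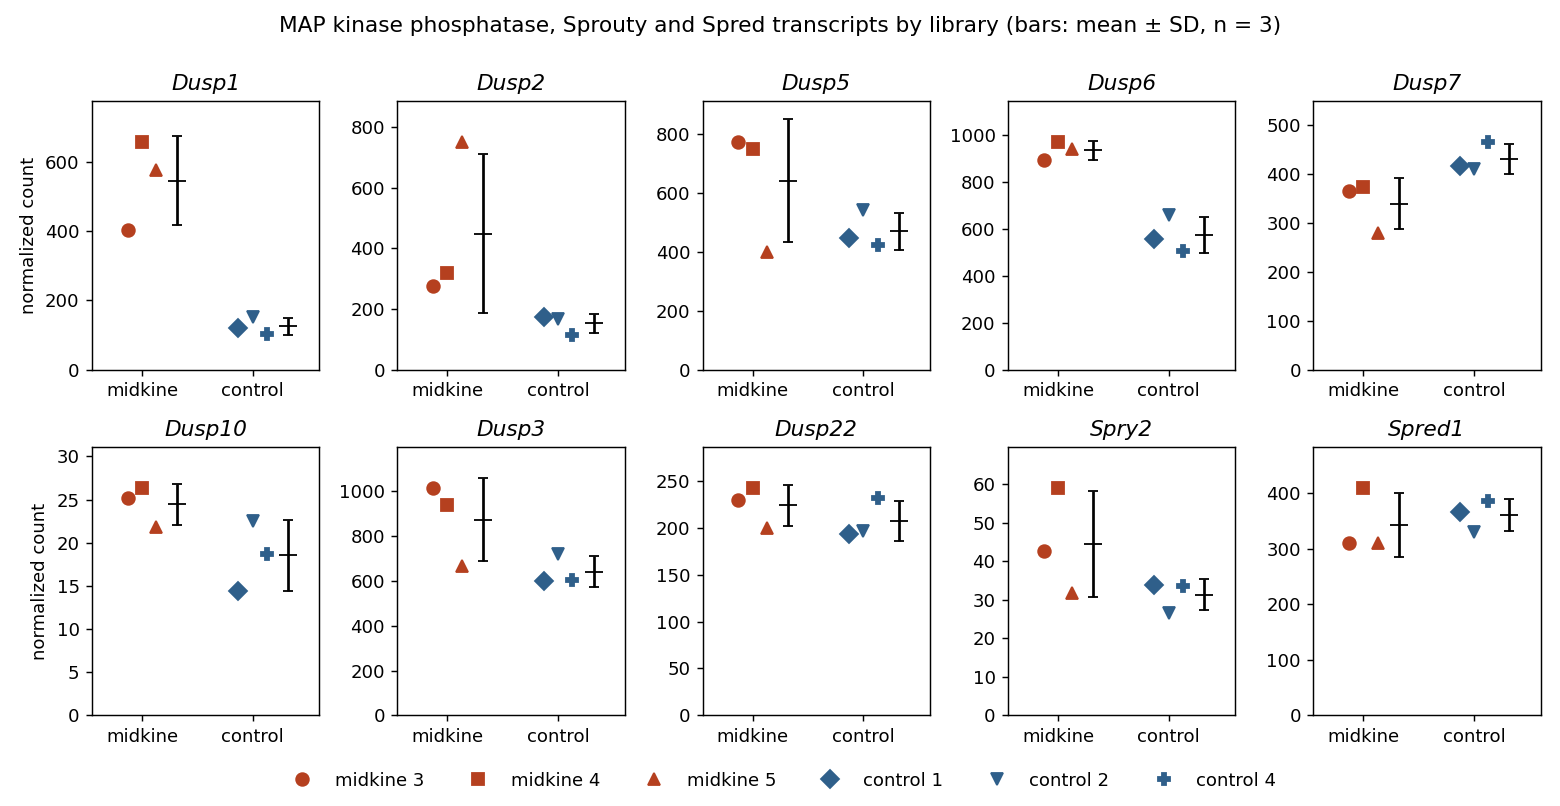
Normalized counts of the 10 genes in each library (y axis from 0, midkine left of control); symbols are single libraries and bars the mean ± SD of 3 libraries. Dusp1, Dusp2 and Dusp6 lie above every control in all midkine libraries, Dusp7 lies below, and the other 6 genes overlap.

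With all 6 libraries, 3 of the 10 genes (Dusp1, Dusp2 and Dusp6) had every midkine library above every control, which held for 15.5% of the 13543 genes tested, and 1 (Dusp7) had every midkine library below, which held for 15.3%. Without midkine 5 these counts were 7 higher (adding Dusp3, Dusp5, Dusp10 and Spry2), against 23.8% of genes tested, and 1 lower, against 23.8%. The median log2 fold change of the 10 genes was 0.41, or 0.64 without midkine 5, against −0.0040 and −0.0022 over all genes tested. Since the genes were chosen on this contrast, nothing is read from these counts or medians.

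The libraries differed in which of the genes they showed high. On the log2(value + 1) scale, midkine 3 and 4 lay 1.70 and 2.40 above the control mean for Dusp1, 0.87 and 1.09 for Dusp2 and 0.64 and 0.76 for Dusp6. Midkine 5 lay 2.21, 2.31 and 0.72 above it for the same genes. For Dusp5, midkine 3 and 4 lay 0.72 and 0.68 above the control mean and midkine 5 was −0.22. For Dusp3 the differences were 0.67, 0.56 and 0.06 in midkine 3, 4 and 5. Midkine 5 was the lowest midkine library for 6 of the 10 genes, while Dusp2 was highest there. Among the controls, control 2 was highest for 5 genes, namely Dusp1, Dusp3, Dusp5, Dusp6 and Dusp10.

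**Figure D3:**
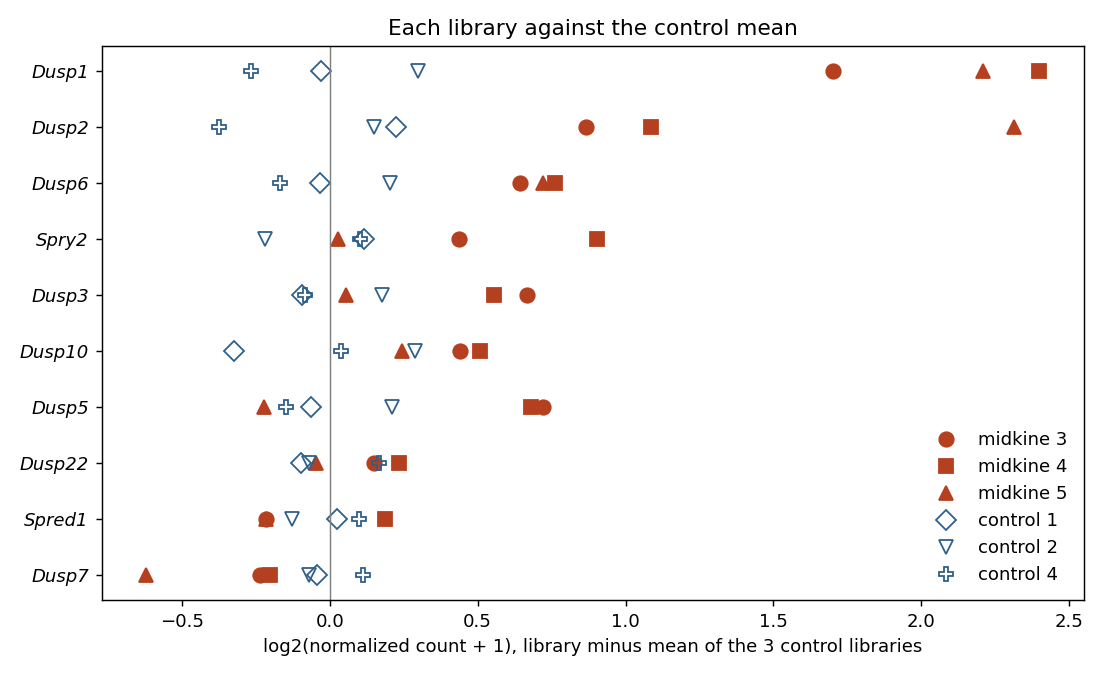
Difference of each library from the mean of the 3 control libraries on the log2(normalized count + 1) scale (x axis), by gene (rows, ordered by the midkine mean); filled symbols are midkine and open symbols control libraries. Midkine 5 is with midkine 3 and 4 for Dusp1 and Dusp6, above them for Dusp2 (2.31) and among or below the controls for Dusp3 and Dusp5.

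The pair of genes with the most similar profiles across the 6 libraries was Dusp3 and Dusp5. After each gene was centred on its own mean, their log2 values differed by 0.13 (root mean square). Dusp1 and Dusp7 were least alike, at 1.28. Among 10107 other genes with a mean of at least 20, the closest to Dusp6 were Zfp36 (0.046), whose protein destabilizes cytokine mRNAs, Tmem86a (0.051) and Fcgr1 (0.058), a receptor for IgG. Zfp36 had 998, 1101 and 1008 normalized counts in midkine 3, 4 and 5 and 658, 768 and 569 in control 1, 2 and 4, in the same order of libraries within the controls as Dusp6. Closest to Dusp1 were Emp1, a membrane protein (0.21), Gpd1, a glycerol phosphate dehydrogenase (0.21), and Pianp (0.27). Closest to Spry2 were Cryzl2 (0.065), Dab2, an endocytic adaptor (0.071), and Spic, a transcription factor of red pulp macrophages (0.078). These are likenesses over 6 libraries that share the contrast and the outlying library.

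QuantSeq reads come from the 3′ end of a transcript and are not scaled to length, so the order of tag counts between genes is that of 3′ ends captured. In midkine libraries the order by mean was Dusp6, Dusp3, Dusp5, Dusp1, Dusp2, Spred1, Dusp7, Dusp22, Spry2 and Dusp10. Each of the first 7 overlapped in range with its neighbour. In control libraries it was Dusp3, Dusp6, Dusp5, Dusp7, Spred1, Dusp22, Dusp2, Dusp1, Spry2 and Dusp10. There the ranges of Dusp3, Dusp6, Dusp5 and Dusp7 overlapped between neighbours, as did those of Dusp2 and Dusp1. Dusp1 thus stood at rank 4 in midkine and rank 8 in control libraries.

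Genes of 6 lists, called pathway lists here, were tested in the same fit. They hold genes of the same signalling chain and relatives of the 10 genes by family, whether or not these act on MAP kinases. Of 104 listed genes, 88 had a mean of at least 5, and limma with all libraries called 0 of them at an adjusted p under 0.05, as for 0.0% of all genes tested. An unadjusted p under 0.05 was reached by 19 of the 88, beside 19.7% of all genes, a share near this background. edgeR on the recovered reads called 0, beside 0.0443% of genes called higher. DESeq2 called 4 higher (Egr2, Ier2, Junb and Zfp36), beside 3.97% of genes, and 1 lower (Errfi1), beside 1.95%. Without midkine 5 limma called 19 higher and 7 lower, beside 9.92 and 8.52% of all genes tested.

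The median log2 fold change of the 20 tested ERK-responsive transcripts was 0.34, or 0.37 without midkine 5. With all libraries 0 passed limma. Without midkine 5 10 were higher and 3 lower (Myc, Ccnd1 and Etv4), beside 9.92 and 8.52% of all genes tested. Ccnd1 had a log2 fold change of −0.86 without midkine 5 (limma adjusted p = 1.93e-05) and −0.55 with all libraries (limma adjusted p = 0.273). Junb, an AP-1 subunit, had 1275 ± 104 normalized counts in midkine and 792 ± 87.0 in control libraries (SD, n = 3 each), with a limma adjusted p of 0.0881. For Zfp36, whose profile was the closest to that of Dusp6, the limma adjusted p was 0.103. Egr2, a zinc-finger transcription factor, had 78.3, 105 and 38.1 in midkine 3, 4 and 5 and 23.6, 36.8 and 19.7 in control 1, 2 and 4. Its log2 fold change was 1.36 ± 0.397 (SE; limma adjusted p = 0.140) and 1.77 without midkine 5. Myc, a transcription factor of growth, had lower values with midkine, 49.6 ± 6.04 in midkine and 89.6 ± 18.7 in control libraries (SD, n = 3 each; limma adjusted p = 0.132).

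The RAS-ERK cascade itself had a median of 0.21 over 24 genes (0.15 without midkine 5). Mapk3, which encodes an ERK kinase, had 2141, 2635 and 5588 normalized counts in midkine 3, 4 and 5, against 1674, 1580 and 1924 in control 1, 2 and 4. Midkine 5 thus held far more Mapk3 than the other libraries, and its log2 fold change was 0.88 with it and 0.47 without it (limma adjusted p = 0.205 and 0.00787). Nras, a RAS protein, had 866 ± 247 and Gab1, an adaptor, 56.3 ± 9.71 in midkine libraries, against 529 ± 36.9 and 37.1 ± 2.03 in control libraries (SD, n = 3 each; limma adjusted p = 0.152 and 0.207). Without midkine 5 limma called 6 cascade genes higher, among them the adaptors Grb2, Gab1 and Gab2, and 1 lower (Rps6ka1). The shares of all genes tested were 9.92 and 8.52% in that setting, and with all libraries 0 cascade genes were called.

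The JNK and p38 cascades had a median of 0.07 over 17 genes and 0.03 without midkine 5. Map2k3, which activates p38, had 895 ± 228 normalized counts in midkine and 629 ± 34.6 in control libraries (SD, n = 3 each; limma adjusted p = 0.227). Map3k4 had 146 ± 13.5 and Mapkapk3, a kinase below p38, 623 ± 181 in midkine libraries, against 189 ± 23.9 and 454 ± 25.6 in control libraries (SD, n = 3 each; limma adjusted p = 0.283 and 0.310). Mapkapk5 had 140 ± 28.5 in midkine and 109 ± 4.91 in control libraries (SD, n = 3 each; limma adjusted p = 0.353). Without midkine 5 the only call was Mapk11, a p38 kinase, which was lower. In that setting 9.92% of all genes tested were called higher and 8.52% lower.

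Other dual-specificity phosphatases had a median of 0.09 over 11 genes (0.14 without midkine 5). Ssh3, a phosphatase of the slingshot type, had 126, 164 and 165 normalized counts in midkine 3, 4 and 5 and 101, 104 and 107 in control 1, 2 and 4, with a limma adjusted p of 0.178 (0.0499 without midkine 5). Dusp12 had 122 ± 48.7 and Dusp18 11.1 ± 0.936 in midkine libraries, against 81.6 ± 3.50 and 7.76 ± 0.745 in control libraries (SD, n = 3 each; limma adjusted p = 0.346 and 0.447). Dusp28 had 30.0, 46.4 and 44.5 in midkine 3, 4 and 5 and 33.8, 40.9 and 16.8 in control 1, 2 and 4 (limma adjusted p = 0.493). Spred3, a relative of Spred1, had 6.77, 4.22 and 4.54 in midkine 3, 4 and 5 and 11.3, 19.4 and 14.8 in control 1, 2 and 4, few reads in every library (log2 fold change −1.38 ± 0.380 SE; limma adjusted p = 0.132, and 0.0388 without midkine 5). Spred2 had 53.7 ± 3.80 in midkine and 48.5 ± 3.96 in control libraries (SD, n = 3 each; limma adjusted p = 0.692). Spred3 and Spred2 were the 2 tested genes of the other Sprouty and Spred list, whose median was −0.62, or −0.57 without midkine 5.

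Among 14 other brakes on receptor and RAS signalling the median was 0.05 (0.12 without midkine 5). Errfi1, an inhibitor of EGF receptors, had 33.8, 45.4 and 38.1 normalized counts in midkine 3, 4 and 5, against 70.8, 73.6 and 75.9 in control 1, 2 and 4. Its groups did not overlap, and the log2 fold change was −0.90 ± 0.201 (SE; limma adjusted p = 0.0894, and 0.00504 without midkine 5). Dok2, an adaptor that dampens RAS in blood cells, had 323 ± 77.9 in midkine and 192 ± 22.8 in control libraries (SD, n = 3 each; limma adjusted p = 0.140). Rasa3, a GTPase-activating protein that inactivates RAS, had 923 ± 102 in midkine and 675 ± 59.7 in control libraries (SD, n = 3 each, limma adjusted p = 0.178). Its relative Rasa2 had 200.2 ± 59.4 in midkine and 263 ± 17.9 in control libraries (SD, n = 3 each, limma adjusted p = 0.326).

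**Figure D4:**
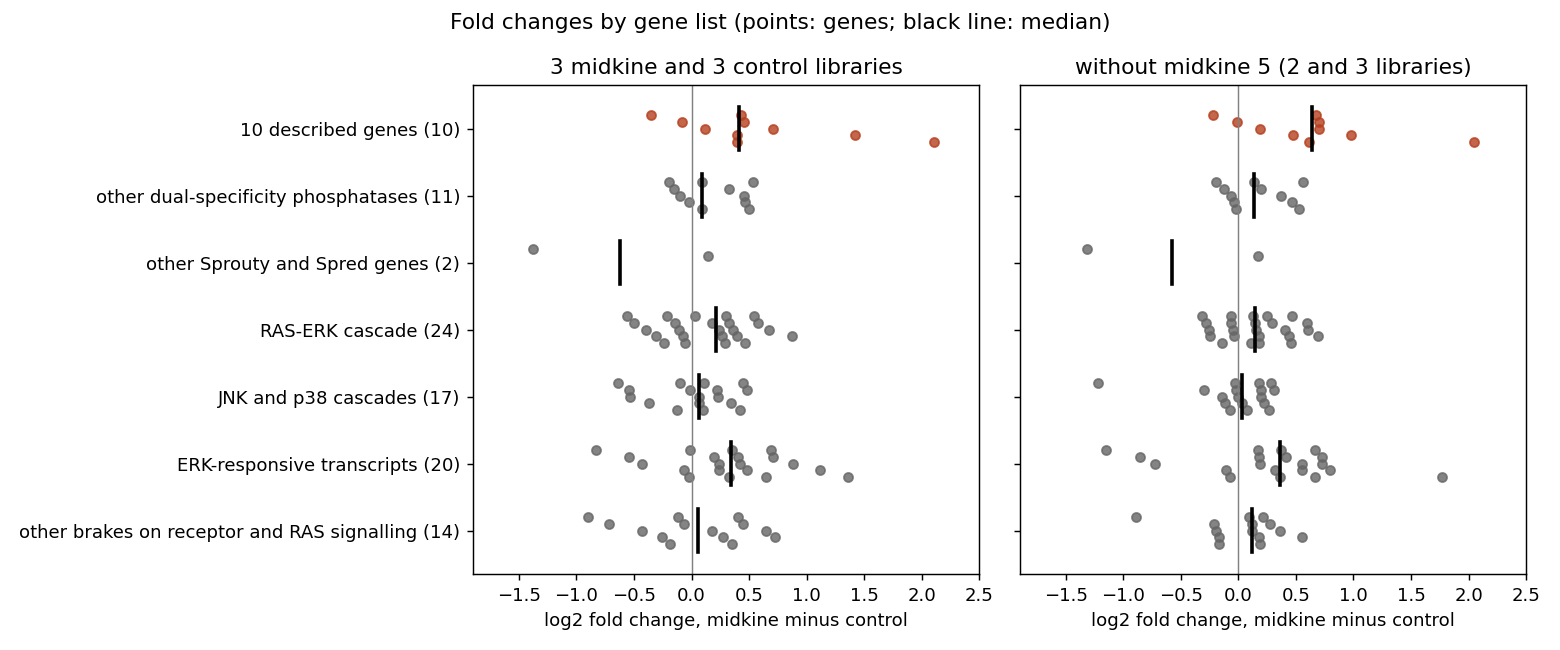
Log2 fold changes, midkine minus control (x axis), of the 10 described genes and of the tested genes of 6 lists (rows, with the number of genes), with all libraries on the left and without midkine 5 on the right; points are genes and black lines medians. The medians are 0.41 and 0.64 for the 10 genes. Those of the 6 lists run from −0.62 (other Sprouty and Spred genes) to 0.34 (ERK-responsive transcripts) with all libraries. Without midkine 5 they run from −0.57 to 0.37 for the same lists. The 10 genes and the lists were chosen with earlier results of these data known, so the medians are a description.

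Levels of cell type markers differed between the groups as well. Summed over 15 monocyte and macrophage markers, the level was 92904 to 118064 normalized counts in midkine and 62147 to 71745 in control libraries. Lyz2 and Apoe were the largest terms, with 38032 and 29867 of the 92904 in midkine 3. Without midkine 5 limma called 11 of the 15 higher and 2 lower (Cx3cr1 and Ccr2). The shares of all genes tested in that setting were 9.92% higher and 8.52% lower. With all libraries limma called 0 genes, markers included. Over 15 neutrophil markers the sum was 183796 to 197082 in midkine and 128950 to 144215 in control libraries, with 9 higher and 0 lower without midkine 5. Its largest terms were S100a8 and S100a9, with 85517 and 61919 of the 189866 in midkine 3. Over 15 dendritic cell markers it was 10877 to 15066 in midkine and 16815 to 18294 in control libraries, with 0 higher and 8 lower without midkine 5.

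Markers of smaller populations were measured too. The sum of 7 basophil, mast cell and eosinophil markers was 1749 to 2707 normalized counts in midkine and 964 to 1211 in control libraries. That of 7 B cell markers was 1163 to 2192 in midkine and 1035 to 1455 in control libraries. The 4 erythroid markers summed to 110 to 176 in midkine and 45.1 to 77.9 in control libraries, and the 7 stromal markers to 340 to 529 in midkine and 617 to 1107 in control libraries. Without midkine 5 limma called 7 of 7 basophil, mast cell and eosinophil markers, 6 of 7 B cell markers and 1 of 4 erythroid markers higher, and 4 of 5 tested stromal markers lower. These counts stand beside 9.92% of all genes tested called higher and 8.52% lower in that setting. With all libraries 0 were called. None of the markers analysed was at 0 in all libraries. The part of cell composition in the levels of the 10 genes was not tested.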

How the data were processed

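Libraries were made with the QuantSeq 3′ FWD kit, per the labels' protocols. The submitters' processing notes name TopHat2 2.0.10, Bowtie 1.0.0, SAMtools 0.1.19, HTSeq, DESeq2 and the build GRCm38. For the strand setting and the annotation, the authors' choices were not given in the sources used here. The deposited values are a signal per gene: read counts divided by the authors by 1 size factor per library (0.947 to 1.10). Dividing by the smallest value above 0 gave whole reads for 100% of values, within 0.01 reads. A floor of 3 reads is at most 3.17 normalized counts. Intervals cover counting error only.

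limma 3.58.1 (R 4.3.3, two-sided, trend) was fitted on log2(value + 1) for 13543 genes with a mean of at least 5, with Benjamini-Hochberg adjustment over all of them. edgeR 4.0.16 and DESeq2 1.42.0 were run on the recovered reads as alternatives, besides other pseudocounts, filters, scalings and libraries left out. The fits were checked on simulated counts. The 10 genes and all lists were chosen with earlier results of these data known. In each pathway list the genes past the threshold, or else the 4 with the smallest p, are named, except 1 that is not reported here. Likeness was ranked for Dusp1, Dusp6 and Spry2. Ergic1 was named for its overlap, Gm and Rik models were skipped, and genes called by an alternative were named after their values were seen.

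Promoters are from RefSeq on GRCm38.p6, all 10 genes matched, and gene spans are from GENCODE M21. Of the table's symbols 15353 matched 1 GENCODE gene. Exons of Dusp3 and Dusp5 also overlap a gene on the other strand. Listed genes without a row, among them Dusp13, Dusp15, Dusp21, Dusp26, Styxl1, Spry3, Mapk12, Lrig1, Fcer1a, Igll1, Klf1, Car1 and Alas2, were not analysed here.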

Additional observations from a re-analysis of the deposited data

How the results depend on the processing

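Over 15 alternatives for each of the 10 genes, 149 of 150 log2 fold changes kept their sign and moved by less than the SD between replicates. The exception was Spred1, at 0.000493 with edgeR without midkine 5, a setting added after the data were seen. Leaving out 1 library cannot move a limma log2 fold change by as much as this SD. A filter on low values leaves it unchanged. For these alternatives the limit on size was met in advance, so no stability is read from it. The range was 1.95 to 2.30 for Dusp1, 0.97 to 1.70 for Dusp2, 0.62 to 0.81 for Dusp6 and 0.23 to 0.70 for Dusp5. The count of the 10 genes without overlap was 4 with TMM scaling and 5 with quantile normalization, and 4 to 8 leaving out 1 library. The 8 came without midkine 5, where 23.8% of all genes tested lay higher and 23.8% lower without overlap. With all libraries these shares were 15.5 and 15.3%. Shares over all genes were not computed for the other settings, so nothing is read from these counts. Genes called over the whole table numbered 10 with edgeR, 684 with DESeq2, 10 with a pseudocount of 5, 9 without a filter, 7 with TMM scaling and 16 with quantile normalization. They numbered 0 to 2497 leaving out 1 library, the highest without midkine 5, where edgeR called 2508. Of the pathway genes 5 were called with DESeq2, 0 to 26 leaving out 1 library and 26 with edgeR without midkine 5. The cause was not tested. No paired analysis was possible because the groups share only 1 replicate number. Dusp10 and Spry2 are limited by depth.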

Other observations

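Family members with a mean under 5 normalized counts were not tested. Spry1, a Sprouty gene, had 7.73, 4.22 and 9.08 normalized counts in midkine 3, 4 and 5 and 2.05, 1.02 and 2.96 in control 1, 2 and 4, at or under the floor of 3 reads in each control library. Spry4 had 2.90, 3.17 and 0.908 in midkine and 2.05, 2.05 and 8.88 in control libraries of the same order. Dusp4, a nuclear phosphatase induced by ERK, had 8.70, 4.22 and 2.72 in midkine and 6.15, 2.05 and 5.92 in control libraries. Dusp8 had 3.87, 4.22 and 1.82 in midkine 3, 4 and 5 and 1.03, 1.02 and 0 in control 1, 2 and 4. Its groups did not overlap, but midkine 5 and every control were under the floor of 3 reads. Dusp9 and Dusp14 overlapped, at 0.908 to 7.26 in midkine and 1.97 to 7.18 in control libraries.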
